A study of Mus musculus with 2 samples.

Results

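The genes of the tissue kallikrein-kinin system were followed in mouse kidney, taken from adults of the inbred strain C57BL/6J. Members were chosen by gene symbol, through the gene identifiers of the deposited tables, and all 9 were found among 43346 genes. They are the kallikreins Klk1, Klk1b3, Klk1b4, Klk1b5 and Klk1b26, the kininogens Kng1 and Kng2, and the bradykinin receptors Bdkrb1 and Bdkrb2. The data hold 1 group, adult kidney at 8 weeks of age, with 2 libraries of polyadenylated RNA, numbered as biological replicates 1 and 2 and labelled as tissue of mixed-sex littermates. Both libraries carry 1 donor label and an unknown health state, so every spread and p-value describes these libraries and may be technical in part. With no other group, the data allow levels, transcript shares and a comparison of the libraries.

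Tissue kallikrein is a serine protease that cuts kininogen and releases kinins, short peptides that act close to where they form. In the kidney, Klk1 is made mainly by connecting tubule cells and is secreted into the tubular fluid. Kinins act through the B2 receptor, which is usually present, and the B1 receptor, which is typically induced by injury or inflammation. Mice carry a large family of Klk1-related genes, many of them known from the salivary gland, and a pair of kininogen genes.

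The Klk1 family genes are close copies, and their sequences show which reads can tell them apart. The coding sequence of Klk1b5 matched that of Klk1 at 95.1% of 783 aligned bases, with 38 differences. Klk1b4 matched Klk1 at 90.2%, Klk1b3 at 88.6% and Klk1b26 at 83.4%. The stretches that follow, each of 90 bases from exon 5, the last exon, are shown because they set the genes apart. Capitals mark bases that differ from Klk1, which number 14 in Klk1b5 and 25 in each of Klk1b3, Klk1b4 and Klk1b26. They are written 5′ to 3′ on the plus strand of GRCm38, from chr7:44229476-44229565 for Klk1, chr7:44220561-44220650 for Klk1b5, chr7:44202212-44202301 for Klk1b3, chr7:44211612-44211701 for Klk1b4 and chr7:44016827-44016916 for Klk1b26.
Klk1: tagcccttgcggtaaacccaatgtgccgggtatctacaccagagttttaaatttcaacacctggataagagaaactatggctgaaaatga
Klk1b5: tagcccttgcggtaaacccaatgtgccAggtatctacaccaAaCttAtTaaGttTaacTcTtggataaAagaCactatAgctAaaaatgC
Klk1b3: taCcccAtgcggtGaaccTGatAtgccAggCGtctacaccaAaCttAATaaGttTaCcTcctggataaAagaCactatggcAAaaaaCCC
Klk1b4: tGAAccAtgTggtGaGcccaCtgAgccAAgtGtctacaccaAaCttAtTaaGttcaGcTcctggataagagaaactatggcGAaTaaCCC
Klk1b26: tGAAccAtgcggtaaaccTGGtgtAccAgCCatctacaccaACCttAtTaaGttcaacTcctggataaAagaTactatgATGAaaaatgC

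By contrast, exon 3 holds a run of 145 coding bases that is the same in Klk1 (chr7:44228667-44228811, plus strand) and Klk1b5 (chr7:44219749-44219893, plus strand). It is longer than a 76-base read, so a single read inside it cannot be assigned to either gene. The reads were paired, and the fragment length implied by the deposited lengths was 206 bases in replicate 1 and 195 in replicate 2. A pair can thus reach beyond the run, and the shares of words given below describe single reads only. In full, this shared run is as follows.
Klk1 and Klk1b5, shared run: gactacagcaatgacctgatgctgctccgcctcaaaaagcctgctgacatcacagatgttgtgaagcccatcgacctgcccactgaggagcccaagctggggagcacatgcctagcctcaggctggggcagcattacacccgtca
Of the 879 words of 76 bases in the GENCODE M21 transcript of Klk1, 124 (14.1%) occur in transcripts of other genes, 96 of them in Klk1b5. In their M21 transcripts, Klk1b5 shares 139 of 1316 words (10.6%), Klk1b4 58 of 764 (7.59%) and Klk1b3 29 of 814 (3.56%). Klk1b26 shares 64 of 1311 words (4.88%), mostly with Klk1b8 and none with Klk1. The deposited models behind the counts are shorter than M21 for Klk1b5 (862 against 1391 bases), Klk1b26 (873 against 1386) and Klk1 (876 against 954), and the shared part of those models was not computed.

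The kininogens are also near copies, which lie in opposite orientation on chromosome 16. The coding sequence of transcript Kng2-203 matched that of Kng1-202 at 92.1% of 1296 aligned bases. Common to both transcripts were 222 words of 76 bases, which is 14.8% of the words of Kng2-203 and 11.6% of those of Kng1-202. The longer coding forms, Kng2-202 (1932 bases) and Kng1-201 (1983 bases), were not compared. The 90-base stretches of exon 1 that follow are shown because they differ most between Kng2-203 and Kng1-202. Capitals mark the 18 bases of Kng1 that differ from Kng2, and the stretches are chr16:23028716-23028805 on the minus strand for Kng2 and chr16:23058548-23058637 on the plus strand for Kng1.
Kng2: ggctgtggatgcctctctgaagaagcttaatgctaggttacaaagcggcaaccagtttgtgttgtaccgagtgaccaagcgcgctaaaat
Kng1: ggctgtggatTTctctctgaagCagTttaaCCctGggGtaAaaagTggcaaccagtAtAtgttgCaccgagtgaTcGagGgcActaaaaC
The receptors, compared through Bdkrb2-201 and Bdkrb1-203, matched each other at 58.7% of 770 aligned coding bases. Neither transcript shared a word of 76 bases with a transcript of another gene. Bdkrb1-203 has 806 coding bases, against 1002 in Bdkrb1-201 and in Bdkrb1-202, whose words were not searched.

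The libraries held 67252609 expected counts over genes in replicate 1 and 87330097 in replicate 2. An expected count is an estimate of sequenced fragments, and TPM divides it by length and scales it to a common sum over the library. Kidney markers were present in both libraries, with summed levels of 8065 and 5926 TPM for 4 proximal tubule genes and of 502 and 432 TPM for 4 connecting tubule genes in replicates 1 and 2. The libraries also stood apart in markers of adrenal cortex, skeletal muscle and smooth muscle. The 5 adrenal cortex markers summed to 36.1 TPM in replicate 1 and 0.550 TPM in replicate 2, and the 5 skeletal muscle markers to 2.26 and 765 TPM. All 5 of each list were called by the test between libraries described below, against 7.77% of all tested genes. The 4 smooth muscle markers summed to 238 TPM in replicate 1 and 99.1 TPM in replicate 2, and 2 of them were called higher in replicate 1. The part of these tissues in the differences given below was not tested.

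Klk1, the tissue kallikrein, was by far the highest member in both libraries. Its level was 5466 TPM in replicate 1 and 3331 TPM in replicate 2, from 196840 and 168653 expected counts. Its mean of 4398 ± 1509.6 TPM (SD, n = 2) ranked it 27 among all genes and 19 among protein-coding genes, and its counts made up 0.293% and 0.193% of all gene counts. For comparison, the median over detected genes, those with at least 1 TPM in both libraries, was 13.2 and 11.7 TPM. Klk1 (ENSMUSG00000063903.4) spans 44225360 to 44229618 on chromosome 7, on the plus strand, in 5 exons. The deposited SD of its count, which describes how reads are divided between similar genes, was 6.20 counts in replicate 1 and 4.94 in replicate 2.

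Kng2, Klk1b5 and Klk1b3 were the other detected members, and the rest were below 1 TPM in a library or both. The order by mean level was Klk1, Kng2, Klk1b5, Klk1b3, Klk1b4, Bdkrb2, Kng1, Bdkrb1 and Klk1b26. Kng2, a kininogen and so a substrate of kallikrein, reached 111 and 90.2 TPM. Klk1 TPM was 49.1 times that of Kng2 in replicate 1 and 36.9 times in replicate 2. Neighbours in this order did not overlap between libraries except Klk1b4 and Bdkrb2. The deposited TPM intervals, whose level the sources do not state, also overlapped in both libraries for Bdkrb2 with Kng1 and for Bdkrb1 with Klk1b26, so the order of these low genes is not resolved. In all, 4 of the 9 members were detected, against 13108 of 43346 genes (30.2%).

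**Figure D1:**
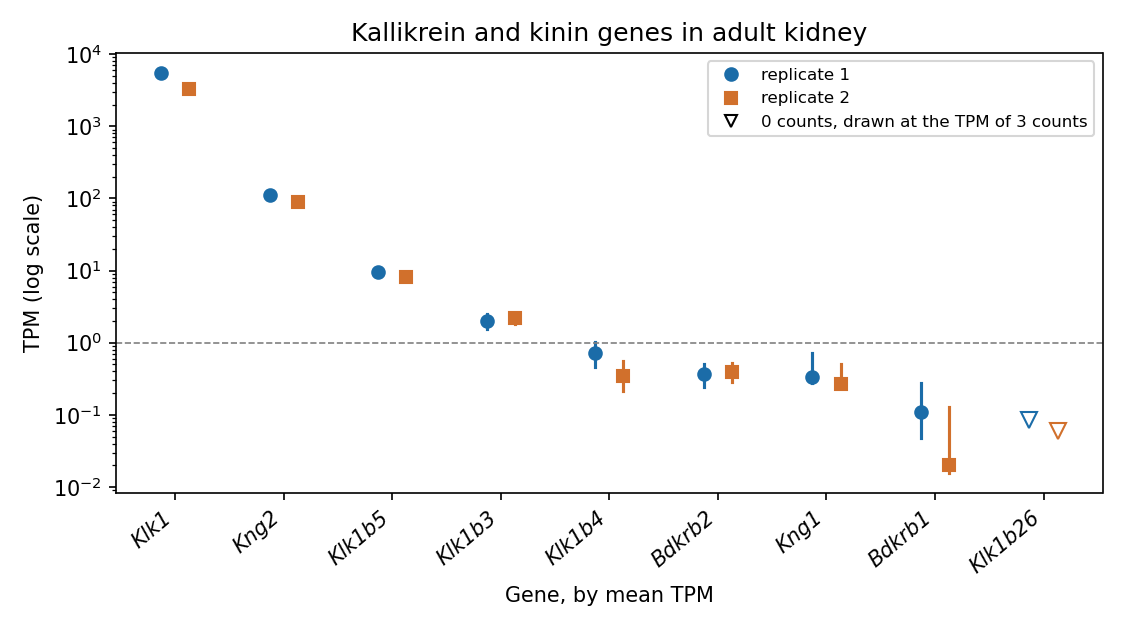
TPM of the 9 members on a log axis in replicate 1 (circles) and replicate 2 (squares), with vertical lines for the deposited TPM interval and open triangles for 0 counts, drawn at the TPM of 3 counts. Klk1, Kng2, Klk1b5 and Klk1b3 lie above the dashed line at 1 TPM, and Klk1 lies at 5466 and 3331 TPM. In replicate 1 the Klk1 value lies above its own deposited interval of 5404 to 5452 TPM.

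Among the Klk1-related members, Klk1b5, a glandular kallikrein, was the highest. Klk1b5 (ENSMUSG00000066512.2, chromosome 7, 44215945 to 44220703, plus strand) had 9.44 TPM in replicate 1 and 8.26 TPM in replicate 2, a mean of 8.85 ± 0.834 TPM (SD, n = 2), from 333 and 409.6 expected counts. The libraries were close to each other, while Klk1 TPM was 579 times that of Klk1b5 in replicate 1 and 403 times in replicate 2. The deposited SD of the Klk1b5 count was 6.20 and 4.94 counts, the same values as for Klk1, which is 1.86% and 1.21% of its own count. Whether a small part of the Klk1 reads was assigned to Klk1b5 beyond what this SD covers was not tested.

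The genes of the nerve growth factor complex of the salivary gland were low. Klk1b3, its gamma subunit (ENSMUSG00000066515.2, 44198191 to 44202352), had 1.99 TPM in replicate 1 and 2.17 TPM in replicate 2, from 73 and 112 counts. Klk1b4, its alpha subunit (ENSMUSG00000066513.4, 44207435 to 44211754), had 0.710 TPM in replicate 1 and 0.350 TPM in replicate 2, from 24 and 17 counts. Klk1b3 passed 1 TPM in both libraries and Klk1b4 in neither. Klk1b26, a kallikrein known as a prorenin-converting enzyme of the salivary gland (ENSMUSG00000053719.9, 44012168 to 44016968), had 0 counts in both libraries. For Klk1b26, 3 counts would be 0.0837 TPM in replicate 1 and 0.0595 TPM in replicate 2, so a lower level was not detectable at this depth.

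Summed over the 15 Klk1 family genes with a row, including the pseudogene Klk1b7-ps, nearly all counts were assigned to Klk1. The family held 197549 counts in replicate 1, of which 99.641% were assigned to Klk1 (exact binomial 95% interval 99.614 to 99.667, counting error only). It held 169618 counts in replicate 2, of which 99.431% were assigned to Klk1 (99.394 to 99.466). The other 14 genes together had 709 and 965 counts, or 19.6 and 19.0 TPM, and Klk1b5 took 47.0% and 42.4% of these counts. All but Klk1b26 had counts in both libraries, 5 were detected and 8 stayed below 1 TPM in both.

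Outside the members, the detected family genes were Klk1b24 (1.64 TPM in replicate 1, 1.35 in replicate 2), Klk1b27 (1.21 and 2.15 TPM) and Klk1b9 (1.26 and 1.10 TPM). Klk1b22, which encodes a binding protein of epidermal growth factor, had 0.860 and 1.61 TPM. The rest, Klk1b8, Klk1b11, Klk1b16, Klk1b21, Klk1b1 and Klk1b7-ps, ranged from 0.0300 to 0.800 TPM. Klk1b27, Klk1b22 and Klk1b1, which are not members, were called higher in replicate 2 by the exact binomial test between libraries. Klk1b27 had 44 counts in replicate 1 and 110 in replicate 2 (log2 ratio of replicate 1 over replicate 2 of -1.02, exact binomial test with Benjamini-Hochberg adjustment, adjusted p = 1.42e-04), Klk1b22 had 30 and 79 (-1.10, adjusted p = 7.70e-04) and Klk1b1 had 3 and 17 (-2.20, adjusted p = 0.0199). These are 3 of 12 tested family genes other than Klk1, against 7.77% of all tested genes. Scaled by total counts, the Klk1b27 log2 ratio was -0.95, below the size threshold. No family gene was called higher in replicate 1, except Klk1b11 (27 and 17 counts) with total-count scaling, at a log2 ratio of 1.04 (exact binomial test, adjusted p = 0.0450). Of 5 salivary gland markers, Smgc, Dcpp1 and Bpifa2 had 0 counts in both libraries, and the list summed to 3.37 and 4.22 TPM, most of it from the amylase gene Amy1.

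The starts of all 27 kallikrein genes with a row lie within 535 kb of chromosome 7, with Klk1 at one end. The genes next to Klk1 had far lower levels. Klk1b5 starts at -9.41 kb from the start of Klk1, Klk1b4 at -17.9 kb and Klk1b3 at -27.2 kb, and their TPM did not follow this order, since Klk1b4 was below Klk1b3 in both libraries. At the far side, the more distant kallikreins Klk4, Klk5, Klk6, Klk7, Klk9, Klk12 and Klk13 had 0 counts in both libraries, and of 12 such genes only Klk8 was detected, at 1.63 and 1.96 TPM. Klk10 (0.320 and 0.350 TPM) and Klk15 (0.170 and 0.0700 TPM) came next. The annotation M21 lists 10 Klk1b pseudogenes in the cluster, 9 of which have no row in the deposited tables. An antisense pseudogene that overlaps Klk1, Gm10109, had 33 and 41 counts (1.03 and 0.910 TPM), and the strand setting of the counting is not given in the sources used here.

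**Figure D2:**
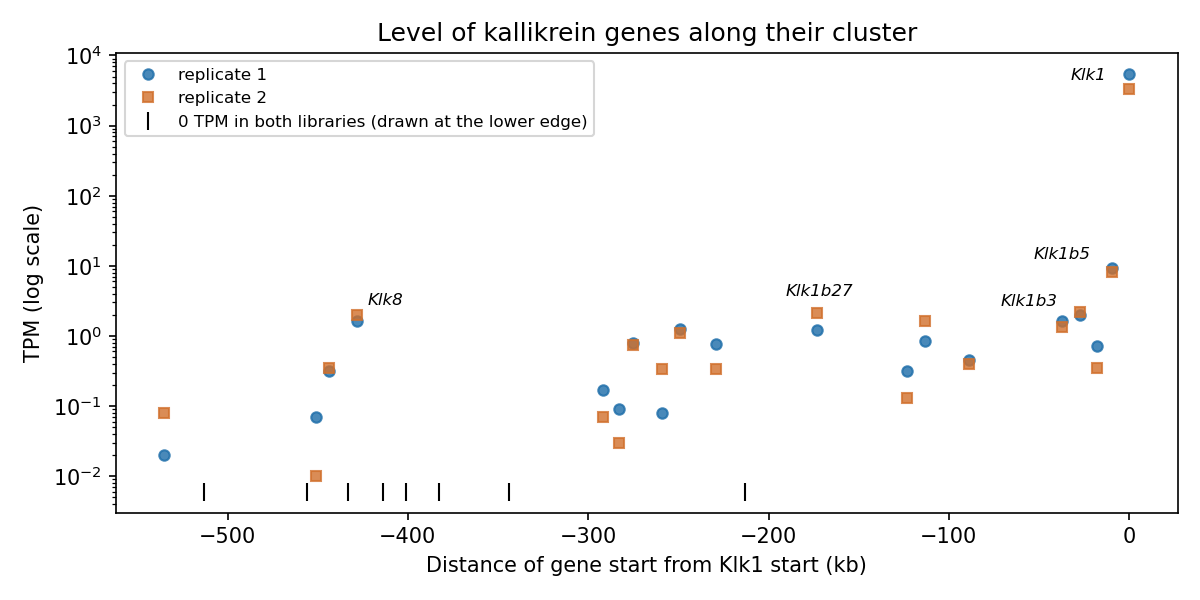
TPM (log axis) of 27 kallikrein genes against the distance of each gene start from the start of Klk1 in kb, for replicate 1 (circles) and replicate 2 (squares), with vertical ticks for genes at 0 TPM in both libraries. Klk1 at 0 kb stands far above its neighbour Klk1b5 at -9.41 kb, and 8 genes, Klk1b26 among them, are at 0.

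The sequence around the RefSeq starts was similar between Klk1 and its paralogs. RefSeq promoters (GRCm38.p6, 250 bases before to 50 after a gene's start) were available for 7 members, not for Bdkrb1 and Kng1. In local alignments, Klk1 matched Klk1b5 at 85.4% of 206 bases, Klk1b4 at 84.1% of 201, Klk1b3 at 82.7% of 225 and Klk1b26 at 81.7% of 219. The part of the Klk1 and Klk1b5 alignment that precedes the RefSeq starts, 44225360 for Klk1 and 44216474 for Klk1b5, is printed to let the copies be compared. For Klk1 the GENCODE M21 start is the same base, but M21 starts Klk1b5 further upstream, at 44215945, so by M21 the printed Klk1b5 stretch lies inside the gene. Capitals mark bases that differ or have no partner (23 positions), in chr7:44225203-44225359 for Klk1 and chr7:44216225-44216380 for Klk1b5, both on the plus strand. The Klk1 stretch ends at the base before its RefSeq start, whereas the Klk1b5 stretch ends 93 bases before its RefSeq start.
Klk1: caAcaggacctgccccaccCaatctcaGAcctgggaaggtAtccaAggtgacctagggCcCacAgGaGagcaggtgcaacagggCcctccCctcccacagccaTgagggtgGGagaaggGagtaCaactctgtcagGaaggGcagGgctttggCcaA
Klk1b5: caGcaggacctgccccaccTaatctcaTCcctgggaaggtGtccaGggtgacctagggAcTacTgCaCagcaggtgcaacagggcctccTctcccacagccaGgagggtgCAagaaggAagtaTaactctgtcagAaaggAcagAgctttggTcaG
The letters TTTAAA, which read the same on both strands, occur in the windows of Klk1b3, Klk1b4, Klk1b5 and Klk1b26 and in 13.2% of all 32851 RefSeq promoters. They are not in the window of Klk1, and in the M21 transcript Klk1-201 they begin at base 52, just past the 50 bases that the window holds. These matches describe letters only.

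Of the kininogens, Kng2 carried nearly all of the signal. Kng2 (ENSMUSG00000060459.9, chromosome 16, 22985854 to 23029482, minus strand) had 111 TPM in replicate 1 and 90.2 TPM in replicate 2, a mean of 101 ± 15.0 TPM (SD, n = 2), from 8600 and 9482 counts. Kng1 (ENSMUSG00000022875.13, chromosome 16, 23057865 to 23082078, plus strand) had 0.330 TPM in replicate 1 and 0.270 TPM in replicate 2, from 28.1 and 38.2 counts. Kng2 TPM was 338 times that of Kng1 in replicate 1 and 334 times in replicate 2. The deposited SD of the Kng1 count was 1.46% and 1.44% of the estimate. Its deposited TPM interval was wider, from 0.272 to 0.715 in replicate 1 and from 0.246 to 0.510 in replicate 2.

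Kininogen is best known as a plasma protein made by the liver, and the liver markers were low beside Kng2. The 5 liver markers summed to 29.8 TPM in replicate 1 and 27.1 TPM in replicate 2, none of them at 0, and the albumin gene Alb had 8.19 and 7.10 TPM. Their part in the Kng2 level was not tested. In bulk tissue, a lower level can reflect fewer cells of a type or less RNA per cell, and these cannot be told apart.

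Most Kng2 counts were assigned to the short coding form. Kininogen genes are known to give a high and a low molecular weight protein through alternative ends of the transcript. Kng2-203, with 1299 coding bases and the last exon at 22985854 to 22986068, held 87.8% of Kng2 TPM in replicate 1 and 91.1% in replicate 2. Kng2-202, with 1932 coding bases and the last exon at 22987346 to 22988325, held 9.43% and 4.77%. In counts, Kng2-202 had 1178 in replicate 1 and 670.2 in replicate 2, with deposited SDs of 35.16 and 25.32, whereas Kng2-203 had 7203 and 8437, with SDs of 41.11 and 38.14. The long form had more counts in the library of lower depth, by more than the deposited SDs. With 1 estimate per library no test was made. Kng2-201 (1.11% and 2.78%) and Kng2-204, annotated as a target of nonsense-mediated decay (1.65% and 1.32%), were minor. Their estimates are uncertain. Kng2-201 had 92.0 and 260.0 counts, with deposited SDs of 32.56 and 50.84, and Kng2-204 had 127 and 114, with SDs of 25.20 and 36.75.

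For Kng1 the shares of transcripts rest on few counts. Kng1-202 held 43.3% in replicate 1 and 45.4% in replicate 2, and Kng1-201, with the longest coding sequence of 1983 bases, held 22.1% and 54.6%. The Kng1-201 estimates of 7.94 and 22.2 counts have deposited SDs of 3.13 and 2.93. Kng1-203 and Kng1-204 had counts in replicate 1 only, 5.78 and 0.900, with deposited SDs of 2.84 and 1.79. With the shares of all these transcripts, the effective length of the gene differed between the libraries (a ratio of 0.828). The Kng1 TPM ratio of 1.22 lies above the count ratio after scaling of 0.908. Besides this length, the scaling enters the gap. For Klk1, with an effective length ratio of 0.984, the TPM ratio was 1.64 and the count ratio after scaling 1.44.

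**Figure D3:**
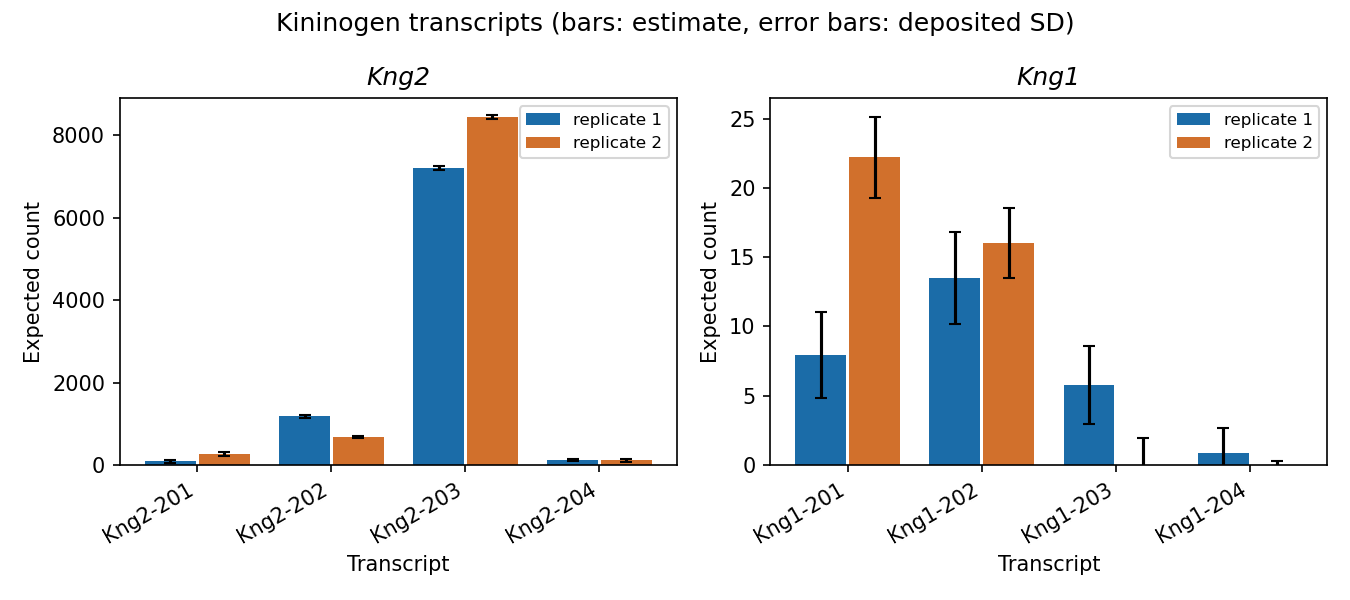
Expected counts of Kng2 transcripts (left) and Kng1 transcripts (right) in replicate 1 and replicate 2, with error bars for the deposited SD of each estimate and a separate axis for each gene. Kng2-203 dominates at 7203 and 8437 counts, while no Kng1 transcript passes 22.2 counts, and a Kng1 transcript without a name in M21 had 0 counts and is left out.

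Both receptors were below 1 TPM. Bdkrb2, which encodes the B2 receptor (ENSMUSG00000021070.5, chromosome 12, 105563226 to 105595237, plus strand), had 0.370 TPM in replicate 1 and 0.390 TPM in replicate 2, a mean of 0.380 ± 0.0141 TPM (SD, n = 2), from 29 and 43 counts. The deposited Bdkrb2 transcript has 1680 bases, against 3792 bases for the same transcript in M21, whose last exon alone has 3665 bases, and reads outside the shorter model are not part of these counts. Bdkrb1, which encodes the B1 receptor (ENSMUSG00000041347.5, chromosome 12, 105603085 to 105605428, plus strand), had 0.110 TPM in replicate 1 and 0.0200 TPM in replicate 2, from 4 and 2 counts. The count ratio of Bdkrb1 after scaling was 2.46, with an exact 95% interval of 0.353 to 27.2. Its counts were assigned to Bdkrb1-203 alone in replicate 1 and to Bdkrb1-202 alone in replicate 2, so the TPM ratio of 5.50 also holds an effective length ratio of 0.602. A difference in Bdkrb1 was not detectable at this depth.

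The libraries were compared gene by gene with an exact binomial test, two-sided, after rounding the counts and scaling the libraries by TMM (trimmed mean of M values). It compares the reads of these libraries and not conditions. A gene was called at a Benjamini-Hochberg adjusted p below 0.05 over all tested genes and an absolute log2 ratio of 1 or more. Of the 7 members with at least 10 counts in sum, 0 were called, against 1455 of 18723 genes (7.77%). At any size of ratio, 2 of these members had a p below 0.05, both before and after adjustment. The share of all tested genes with an adjusted p below 0.05 was 56.8%. Called genes were higher in replicate 1 in 450 cases and in replicate 2 in 1005.

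Klk1 and Kng2 differed in their reads without reaching the size threshold. Klk1 had a log2 ratio of 0.52, a ratio of 1.44 (95% interval 1.43 to 1.45, exact binomial test, adjusted p = 1e-300, the smallest value written). Kng2 had a log2 ratio of 0.16, a ratio of 1.12 (1.09 to 1.15, exact binomial test, adjusted p = 5.82e-13). At this depth small ratios pass the test often, and 10627 genes (56.8%) had an adjusted p below 0.05 at any size. The median absolute log2 ratio of tested genes was 0.25, and 23.9% of them, or 9.47% of the 1256 tested genes with 100 TPM or more, had one at least as large as Klk1.

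The remaining tested members did not pass the test. Klk1b5 had a ratio of 1.00 (95% interval 0.863 to 1.16, exact binomial test, adjusted p = 1.00), so a difference the size of that of Klk1 lies outside its interval. Klk1b3 had a ratio of 0.803 (0.590 to 1.09) with adjusted p = 0.234 by the exact binomial test. For Klk1b4 (1.74, 0.896 to 3.45), and Kng1 (0.908, 0.537 to 1.52), the intervals are wide and hold ratios on both sides of 1, with adjusted p-values of 0.163 and 0.861 by the exact binomial test. Bdkrb2 had a ratio of 0.831, with adjusted p = 0.612 by the exact binomial test. The Klk1 ratio is 1.64 in TPM, 1.52 in CPM (counts scaled to a common library total) and 1.44 after TMM scaling, with an effective length ratio of 0.984.

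**Figure D4:**
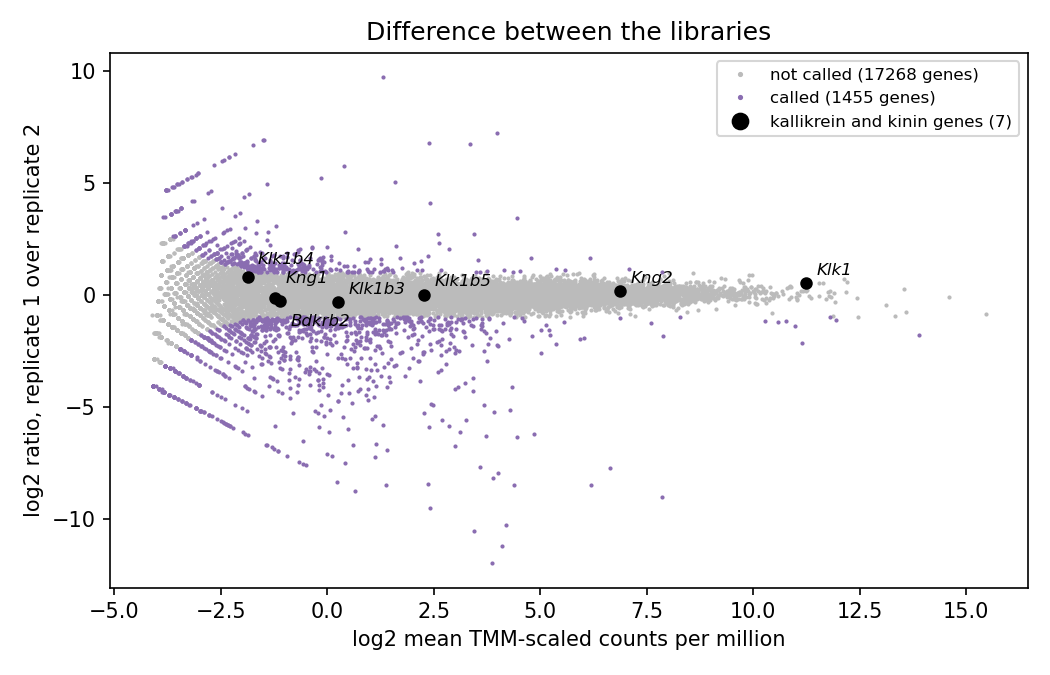
Log2 ratio of replicate 1 over replicate 2 against the log2 mean of TMM-scaled CPM for all tested genes, with called genes in purple and the 7 tested members in black. No member lies beyond an absolute log2 ratio of 1, and Klk1 sits at 0.52 on the high side of the level axis.

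The protein-coding genes nearest to Klk1 in level over both libraries, by the distance of log2(TPM + 1), were Igfbp7 (distance 0.07, 5296 and 3201 TPM), Napsa (0.16, 5489.8 and 2987 TPM) and Atp5b (0.17, 5857 and 3027 TPM). With a single pair of libraries, this likeness covers TPM only. In TMM-scaled counts, the ratio of Atp5b was 1.13, against 1.46 for Igfbp7, 1.62 for Napsa and 1.44 for Klk1, and the effective length of Atp5b was 826 bases in replicate 1 and 1261 bases in replicate 2. Markers of the connecting tubule, where Klk1 is made, varied in ratio. S100g, a calcium-binding protein, had 307 TPM in replicate 1 and 360.0 TPM in replicate 2, Calb1, the calbindin of this segment, had 170.0 and 56.5 TPM, and the sodium-calcium exchanger Slc8a1 had 15.2 and 11.3 TPM. For Calb1 the count ratio after scaling was 1.12, with effective lengths of 873 bases in replicate 1 and 2092 bases in replicate 2. The log2 count ratios of the 4 markers ranged from -0.45 for S100g to 0.76 for the remaining marker, Trpv5. Trpv5 had 9.51 TPM in replicate 1 and 4.35 TPM in replicate 2. Of the 4 markers, 0 were called, against 7.77% of all tested genes. Summed TPM was 628 in replicate 1 and 363 in replicate 2 for 3 distal convoluted tubule markers, 1258 and 974 for 5 principal cell markers, and 3549 and 2182 for 3 thick ascending limb markers. The distal convoluted tubule sum was mostly Slc12a3 (512 and 247 TPM), while Wnk4 had 103 and 106 TPM.

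The enzymes that break down kinins were broadly present. Of 11 genes, 10 were detected, with medians of 24.9 and 17.6 TPM, against 30.2% of all genes detected. None of the 11 was called with TMM scaling, against 7.77% of all tested genes, and Ace was called with total-count scaling. Xpnpep1, an aminopeptidase that removes the first residue of bradykinin, was the highest at 201 TPM in replicate 1 and 182 TPM in replicate 2. Ace, the angiotensin-converting enzyme and a major kininase, had 102 and 45.0 TPM with a log2 ratio of 0.99, just under the size threshold, and 1.07 with total-count scaling (exact binomial test, adjusted p = 1e-300, the smallest value written). Cpn1, the catalytic subunit of carboxypeptidase N, had 77.4 and 68.5 TPM, whereas the gene of its partner subunit, Cpn2, was not detected, at 0.320 and 0.340 TPM.

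Of 7 signalling genes below the receptors, 6 were detected, against 30.2% of all genes, with medians of 10.1 and 10.3 TPM, and 0 were called, against 7.77% of all tested genes. Gna11, a G protein subunit that couples to kinin receptors, had 82.4 TPM in replicate 1 and 61.6 TPM in replicate 2, and the prostaglandin genes Ptges (34.6 and 23.9 TPM) and Ptgs1 (26.1 and 19.5 TPM) followed. Ptgs2, the inducible cyclooxygenase, was the gene not detected, at 0.220 TPM in both libraries. Of the plasma route of kinin formation, Serping1, the C1 inhibitor, had 221 and 153 TPM, F12 had 5 and 3 counts, and F11 had 0 counts in both libraries. Klkb1, the plasma kallikrein, could not be matched by identifier and is not analysed here.

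**Figure D5:**
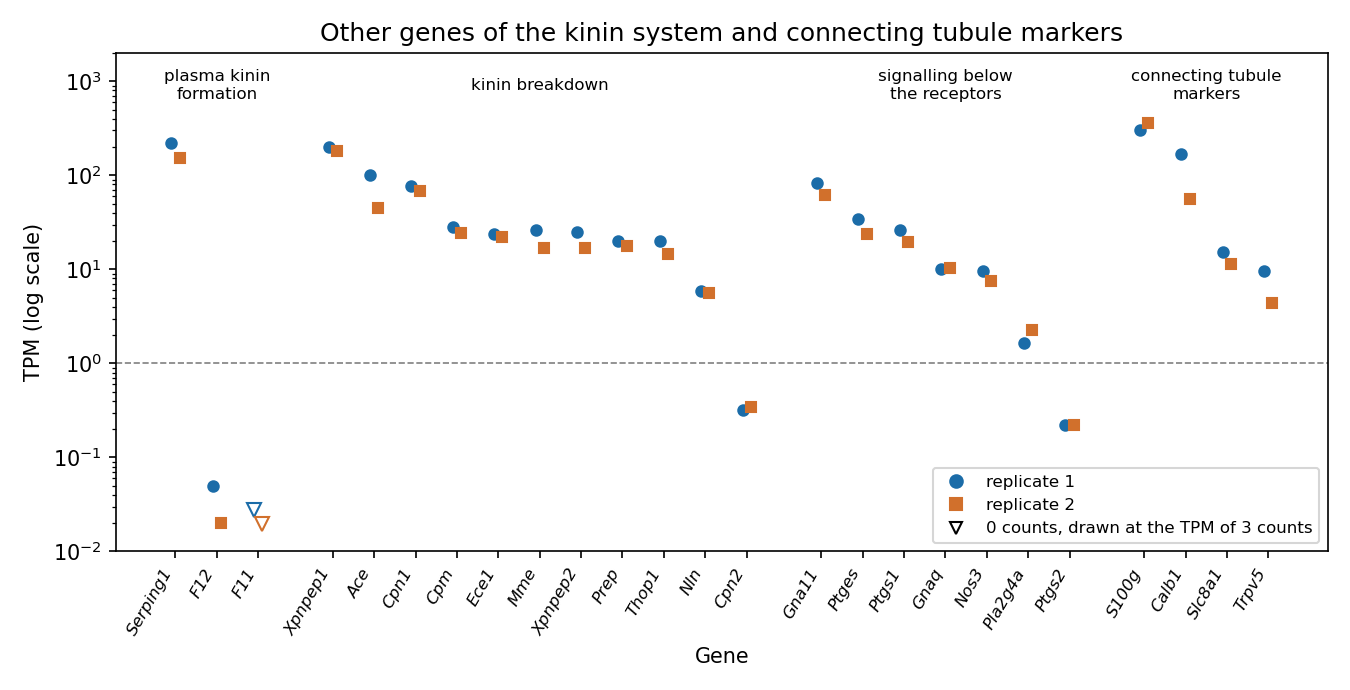
TPM (log axis) of other kinin system genes and of connecting tubule markers in replicate 1 (circles) and replicate 2 (squares), grouped by role, with open triangles for 0 counts drawn at the TPM of 3 counts. Most breakdown and signalling genes lie above the dashed line at 1 TPM, in contrast to F12, F11, Cpn2 and Ptgs2.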

How the data were processed

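Stranded paired-end reads of 76 nt from polyadenylated RNA over 200 nt were quantified by the authors on mm10 and annotation M4, according to text records deposited with the tables. No source used here gives the program or its strand setting. The deposited gene and transcript tables give expected counts, TPM and FPKM, and posterior values. Per the file headers, the deposited SDs of counts and TPM interval bounds are signal values of the quantification, and isoform shares are in percent.

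Expected counts were rounded for the test. Libraries were scaled with TMM factors (edgeR 4.0.16, R 4.3.3), and DESeq2 1.42.0 size factors, total counts, posterior means and no filter were alternatives. A gene needed 10 counts in sum to be tested, a prior count of 0.5 served where a count was 0, and the test was checked on simulated data. Exact intervals (95%) and the floor of 3 counts cover counting error only. Spike-ins (97 rows, 1.59% and 2.29% of counts) and 26248 numeric identifiers, none with a count, were left out. Names and coordinates came from GENCODE M21 (GRCm38), matching 42462 of 43346 genes (98.0%), and promoters from RefSeq. Junction and contig tables on the older build were not used.

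Members and lists were chosen with earlier results of these data known. Named are the members, the Klk1b genes with counts, the 3 highest and all zero genes of each pathway list, and the 3 genes nearest to Klk1. S100g, Calb1, Slc8a1, Trpv5, Slc12a3, Wnk4, Alb, Amy1, Gm10109, Cpn2 and Ptgs2, and the salivary markers at 0, were named after their values were seen.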

Additional observations from a re-analysis of the deposited data

How the results depend on the processing

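With detection set at 0.1 TPM in both libraries, 7 members were detected, against 4 at 1 TPM. Using 1 library, 4 were detected in each case. The share of family counts assigned to Klk1 was 99.536% as a mean of both libraries, 99.536% with posterior mean counts and 99.538% in TPM, and it ranged from 99.431% to 99.641% with a replicate left out. No member was called under TMM, DESeq2 size factors, total counts, posterior mean counts or without the count filter, and the number of genes called ranged from 1443 to 1524. The Klk1 log2 ratio ranged from 0.52 to 0.60, and it was 0.52 for the summed family. With no library left out, 45 of the values for single genes stayed within the spread or on the same side of the threshold and 10 moved, mostly levels in FPKM and ratios of low genes with a pseudocount of 0.1 (Klk1b4 1.80 against 1.27). By an alternative chosen after seeing the data, the calls within lists were recomputed. With total-count scaling 1 kinin breakdown gene (Ace) was called, against 0, and 3 family genes other than Klk1 were called, against 3, with Klk1b11 in place of Klk1b27. No kinin signalling gene or connecting tubule marker was called under any of these settings. The posterior mean gave 0.425 TPM for Kng1, against 0.300. No paired analysis was possible because there is 1 group. Low counts limit Klk1b4, Bdkrb2, Kng1 and Bdkrb1, and 2 libraries with 1 donor label give no spread between animals.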
